A study of Mus musculus with 9 samples.

Results

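Intergenic binding sites of BAP1 were described in Ba/F3 cells, a mouse B cell precursor line that grows in IL-3. Of the 13164 BAP1 peaks in the list, 1434 (10.9%, 95% Wilson interval 10.4 to 11.4) had their middle in no annotated gene of any type or strand and lay more than 1 kb and at most 50 kb from the nearest transcription start site (TSS) of any transcript. They made up 46.4% of the 3091 peaks further than 1 kb from every TSS. The other classes were 10073 gene-proximal peaks within 1 kb of a TSS, 1211 peaks inside a gene body and 446 intergenic peaks more than 50 kb from every TSS. The members were chosen by position alone, and no signal entered the rule.

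BAP1 is the catalytic subunit of the Polycomb repressive deubiquitinase complex and removes monoubiquitin from histone H2A, a mark that Polycomb repressive complex 1 deposits and that accompanies gene silencing. The complex includes ASXL proteins, HCF1, OGT, FOXK1, FOXK2 and YY1, and its binding has mostly been described at promoters. Intergenic binding sites near genes can be enhancers, starts of unannotated transcripts, insulators or repeated sequence, and sequence composition and motifs describe which kinds of DNA they hold.

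The peak list joined 2 immunoprecipitations of crosslinked chromatin, each sequenced once. The first used the anti-BAP1 antibody D1W9B in wild type (WT) Ba/F3 cells, and the second used the anti-FLAG M2 antibody in Ba/F3 cells that stably expressed murine BAP1 with a triple FLAG tag under puromycin selection. Cells of both kinds were grown in WEHI conditioned medium as the source of IL-3. The 4 input samples and 3 H2AK119ub samples, which include 2 Bap1 knockout single-cell clones made with CRISPR-Cas9, were not analysed here. The list gave a position for each peak and no height, score or p-value, every interval was 200 bp wide, and the depth is unknown. There is thus no spread between replicates, and each test compares classes of peaks within this list and treats peaks as independent, although neighboring ones can overlap. All percentages are shares of peaks, and their intervals cover counting error only.

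The next lines show 6 of these peaks, chosen because each held the match nearest to its middle for a motif that was more frequent in these peaks than in intergenic DNA. Each line gives the 200 bases of the peak on the plus strand of mm9, 5′ to 3′, with that match in capitals. SP and KLF factors bind GC boxes, NRF1 and ETS factors such as GABPA bind promoters of housekeeping and mitochondrial genes, NF-Y binds CCAAT boxes, PU.1 is the ETS factor of myeloid and B cells, ZNF143 and THAP11 share a promoter element, and CTCF marks insulators and loop anchors.
NRF1, upstream of A430078I02Rik, chr6:86437326-86437525: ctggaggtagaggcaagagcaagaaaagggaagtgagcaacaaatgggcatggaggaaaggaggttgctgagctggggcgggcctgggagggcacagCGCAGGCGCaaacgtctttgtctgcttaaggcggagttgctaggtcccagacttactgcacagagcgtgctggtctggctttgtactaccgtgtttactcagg
ETS, upstream of Sh2d1b1, chr1:172185784-172185983: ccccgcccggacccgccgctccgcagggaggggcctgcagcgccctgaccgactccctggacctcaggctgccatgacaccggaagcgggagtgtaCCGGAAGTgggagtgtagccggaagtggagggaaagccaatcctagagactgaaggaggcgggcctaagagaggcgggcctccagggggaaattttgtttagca
NF-Y, upstream of Irf1, chr11:53577133-53577332: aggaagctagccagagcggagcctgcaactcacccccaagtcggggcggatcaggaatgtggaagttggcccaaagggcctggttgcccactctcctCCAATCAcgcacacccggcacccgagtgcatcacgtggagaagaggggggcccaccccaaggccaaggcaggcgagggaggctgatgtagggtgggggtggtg
PU.1, upstream of Pdrg1, chr2:152847066-152847265: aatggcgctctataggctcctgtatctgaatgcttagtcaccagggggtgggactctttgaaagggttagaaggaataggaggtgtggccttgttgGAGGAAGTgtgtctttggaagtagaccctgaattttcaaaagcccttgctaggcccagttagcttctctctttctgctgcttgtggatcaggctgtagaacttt
ZNF143/THAP11, upstream of Gm10989, chr7:30836323-30836522: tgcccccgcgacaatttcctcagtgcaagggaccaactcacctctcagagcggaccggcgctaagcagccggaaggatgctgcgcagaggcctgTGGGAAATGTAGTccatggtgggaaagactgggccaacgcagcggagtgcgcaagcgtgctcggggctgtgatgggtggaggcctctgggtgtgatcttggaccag
CTCF, downstream of Gm9836, chr5:23772548-23772747: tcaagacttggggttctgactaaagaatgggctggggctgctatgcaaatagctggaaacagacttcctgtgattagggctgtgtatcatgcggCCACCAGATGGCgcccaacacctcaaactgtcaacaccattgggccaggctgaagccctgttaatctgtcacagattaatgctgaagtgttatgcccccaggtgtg

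The NF-Y example lay 6284 bp upstream of Irf1, an interferon regulatory factor. The PU.1 example lay 6002 bp upstream of Pdrg1. The NRF1 example was 6601 bp from the TSS of A430078I02Rik and the ETS example 21624 bp from that of Sh2d1b1. The sequence within 1 kb of both matched the start of a RefSeq gene (2310040G24Rik and Olfr1490). The match was by sequence alone, and whether these genes lie at the peaks was not tested. The ZNF143/THAP11 example was 3333 bp from Gm10989, and the sequence around it held the RefSeq start of the zinc finger gene Zfp14. The CTCF example lay 10007 bp downstream of Gm9836. For 4 more motifs the peaks with the match nearest to the middle lay 19625 bp from Zfp781 (YY1), 24216 bp from Klrb1c (CRE), 8894 bp from a U2 gene (E-box) and 11479 bp from 1700067P10Rik (E2F).

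The distance of the 1434 peaks to the nearest TSS had a median of 10630.5 bp, with quartiles of 4541.5 and 21473.5 bp. The nearest members to the lower limit lay 1020 bp from Pias4 and 1025 bp from Gprin1, and the peaks just outside it lay 999 bp from Zmym5 and from Pyroxd2. At the upper limit, the last members were 49737 bp from a U6 gene and 49815 bp from Mdm4, and the next peaks were 50194 bp from SNORA17 and 50280 bp from AC133174.1. The genome held 3780292 windows of 200 bp, or 756.1 Mb, that met the same rule, so the density of these peaks was 1.90 ± 0.0501 per Mb (square root of the count as error). The density fell with distance. It was 4.08 ± 0.357 per Mb from 1 to 2 kb, 2.75 ± 0.173 from 2 to 5 kb, 2.25 ± 0.131 from 5 to 10 kb, 1.95 ± 0.102 from 10 to 20 kb and 1.24 ± 0.063 from 20 to 50 kb.

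**Figure D1:**
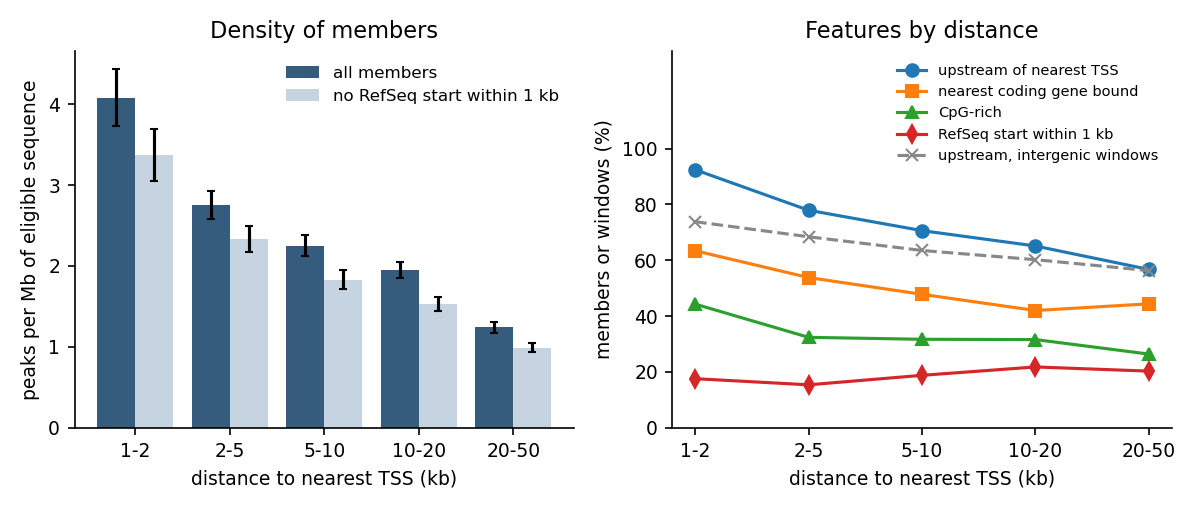
Left, intergenic BAP1 peaks per Mb of intergenic sequence at the same distance from the nearest TSS, for all 1434 members and for the 1158 without a RefSeq start within 1 kb; error bars are the square root of the count. Right, the percent of members in each distance bin with 4 features, and the upstream share of intergenic windows as a dashed line. The density was 4.08 per Mb at 1 to 2 kb and 1.24 per Mb at 20 to 50 kb, and the share upstream of the nearest TSS went from 92.4% to 56.7% (windows, 73.8% to 56.3%).

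The peaks lay mostly on the upstream side of the gene. The nearest TSS was downstream of the peak, so that the peak was upstream of the gene, in 985 of 1434 cases (68.7%, 66.2 to 71.0). The rule removes positions inside genes, most of which lie downstream of a TSS, and the windows that met the same rule were upstream in 60.7% of cases. The upstream share of peaks was 92.4% from 1 to 2 kb, where that of windows was 73.8%, and 70.6% from 5 to 10 kb against 63.5%. From 20 to 50 kb it was 56.7% against 56.3%. No test against the windows was made. Gaps between divergent genes held 28.4% of the peaks (26.1 to 30.8) and 24.9% of the windows, and gaps between convergent genes held 17.0% (15.2 to 19.0) and 21.1%. The density was 2.17 ± 0.107 per Mb in divergent gaps and 1.53 ± 0.098 per Mb in convergent ones.

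The nearest TSS belonged to a protein-coding gene for 1012 peaks (70.6%), to a pseudogene for 113, to a lincRNA for 60 and to a miRNA for 58. Among chromosomes, the density was highest on chromosome 15, at 3.13 ± 0.364 per Mb with 74 peaks, and lowest on chromosome X, at 0.476 ± 0.0794 per Mb with 36 peaks. Chromosome 3 had 0.849 ± 0.144 per Mb and chromosome 19 had 2.87 ± 0.418 per Mb. Members were 12% of all BAP1 peaks on chromosome X and 6.19% on chromosome 3, against 10.9% in the whole list. Chromosome Y held no member and no gene-proximal peak.

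These peaks were richer in CpG than intergenic DNA and poorer than promoter peaks. A peak was called CpG-rich when its observed over expected CpG ratio was at least 0.6, a limit also used for CpG islands, where methylation is usually absent. No length or G + C limit was set, so a CpG-rich peak need not lie in an island, and methylation was not measured. This held for 452 members (31.5%, 29.2 to 34.0), against 2.29% of the windows. The median G + C content was 55.0% in members and 42.0% in windows, and the median CpG ratio was 0.383 against 0.139. Among gene-proximal peaks 87.8% were CpG-rich (odds ratio of members over gene-proximal peaks 0.0641, 95% interval 0.0565 to 0.0728). The share was 21.9% in gene bodies (odds ratio 1.64, Fisher's exact test, two-sided, adjusted p = 1.25e-07 over 71 comparisons) and 25.1% beyond 50 kb (odds ratio 1.37, adjusted p = 0.0228 by the same test).

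CpG was concentrated at the peak middle. The 1158 members without a RefSeq start had 3.76 CpG per 100 bp within 50 bp of the middle and 1.48 per 100 bp beyond 500 bp from it. In gene-body peaks these values were 3.39 and 1.68, and in gene-proximal peaks 10.2 and 2.91.

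**Figure D2:**
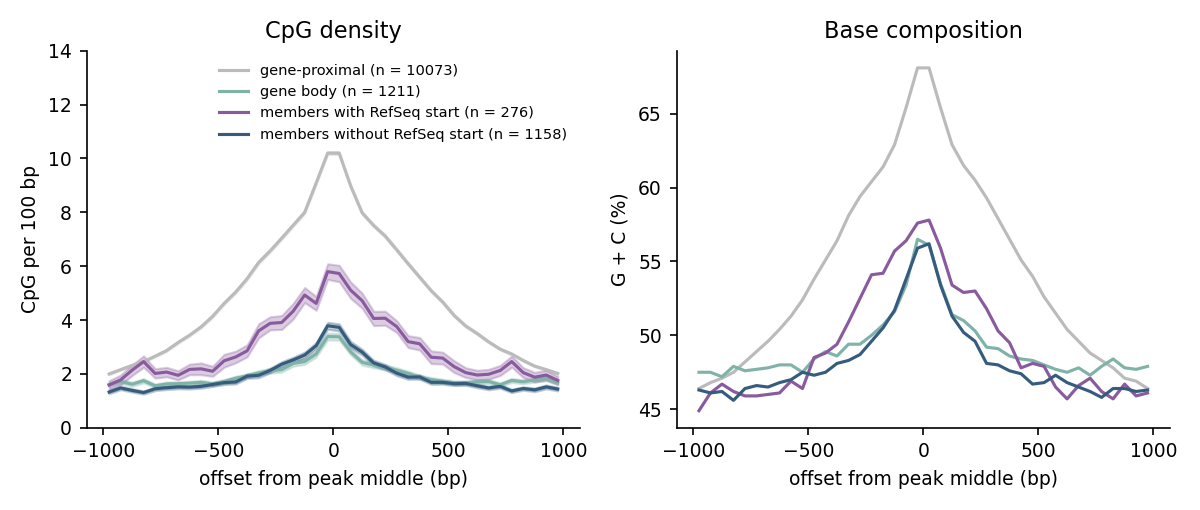
Mean CpG per 100 bp (left; shading is the standard error over peaks) and percent G + C (right, axis from about 45%) in 50 bp bins from 1 kb before to 1 kb after the peak middle. Lines are gene-proximal peaks, gene-body peaks, and members with and without a RefSeq start within 1 kb; all 4 rise towards the middle, to 5.77 CpG per 100 bp in members with such a start and 3.76 in the others.

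A part of the members lay beside the sequence of a RefSeq gene start. Promoter sequences of RefSeq, which span 250 bases before to 50 after each gene start in build GRCm38.p6, were matched to the mm9 sequence around each peak by exact stretches of 100 bases. A RefSeq start lay within 1 kb of the middle of 276 members (19.2%, 17.3 to 21.4), and within 200 bp for 146 of them. The share was 80.6% in gene-proximal peaks, 10.8% in gene bodies and 25.3% beyond 50 kb. For 42 members the RefSeq start had the symbol of the gene with the nearest TSS, and the side of that start was not compared. Examples were Tyk2, a JAK family kinase, with a peak 3929 bp from its nearest GENCODE start and a RefSeq start at 0 bp from the peak middle, Hdac4, a histone deacetylase (31950 bp, RefSeq start at -2 bp), Ktn1 (14438 bp, -8 bp), Rnf4, a SUMO-targeted ubiquitin ligase (9449 bp, -13 bp), and Zfp639 (4734 bp, 30 bp).

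Of the 276 members, 110 had a middle that occurs more than once in the genome, so their RefSeq start may belong to another copy. The other 166 (11.6% of all members) had a unique middle. The copy count covers only the middle 50 bases, so here too the matched start may belong to a gene elsewhere. Whether it lay at the locus of the peak was not tested. The order of the deposited list, which follows the distance to a TSS, bears on this. Its first 9000 positions held 82 members, 71 of the 276 with a RefSeq start and 11 of the other 1158. The authors' order thus ranks these peaks near a TSS. The peaks matched to Tyk2, Hdac4, Ktn1 and Zfp14 held positions 10, 167, 552 and 557. The median position was 11241.0 for all members and 5087.0 for gene-proximal peaks. Symbols of the form Gm or Rik accounted for 169 of the 276 and numbered zinc finger (Zfp) genes for 26. Members with a RefSeq start were CpG-rich in 155 of 276 cases (56.2%, 50.3 to 61.9) and the others in 297 of 1158 (25.6%, 23.2 to 28.2).

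The next values describe repeated DNA in all 1434 members. The measures of repeats were chosen after the sequences had been examined. A simple repeat, defined as a stretch of at least 30 bp with a period of 1 to 6 bases, was found in 177 members (12.3%, 10.7 to 14.1), against 3.92% of the windows, 0.496% of gene-proximal peaks (odds ratio 28.2, Fisher's exact test, adjusted p = 2.37e-115), 15% of gene-body peaks (adjusted p = 0.0842) and 28.3% of peaks beyond 50 kb (odds ratio 0.358, adjusted p = 1.91e-13). A single unit accounted for most of them. The repeated unit was AAAGG, read on either strand, in 114 of the 177, AAGGG in 18, AGGAT in 8 and AC in 7.

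A run of 5 AAAGG units without a mismatch, 25 bases on either strand, was present in 130 members (9.07%, 7.69 to 10.7) and in 1165 of 3780292 windows (0.0308%), a ratio of 294.2. It occurred in 10 of 10073 gene-proximal peaks (0.0993%), in 129 of 1211 gene-body peaks (10.7%, 9.04 to 12.5) and in 94 of 446 peaks beyond 50 kb (21.1%, 17.5 to 25.1). The 130 members lay on 20 chromosomes, 18 had a multi-copy middle, 1 was CpG-rich and 1 had a RefSeq start. Their longest periodic stretch had a median of 59 bp and reached 111 bp. These counts were made after the repeat was seen and were not tested. How well reads map to such stretches and how the input samples behave there were not tested.

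Longer sequences were shared too. Of the 1257 members without a simple repeat, 249 shared a stretch of at least 31 bases with another member, and these fell into 49 groups, 40 of them pairs. The largest group had 92 members on 19 chromosomes, 55 of which shared 1 stretch, with 15 of the 92 on chromosome X. Its median G + C content was 44.0%, and 62 gene-body peaks, 108 peaks beyond 50 kb and 6 gene-proximal peaks held one of its stretches. The second group had 35 members on 17 chromosomes with a median G + C content of 59.0%. All 35 of its members were CpG-rich. A RefSeq start was matched in 34 of these 35 members, mostly of Gm13710 (23) and Gm52435 (10), and in 47 of the 92, mostly of Gm13269 (25) and Gal3st2c (16). Both groups thus held 81 of the 276 members with a RefSeq start, and of the 195 outside them 101 were CpG-rich (51.8%). The middle 50 bases of its members occurred a median of 185.0 times in the genome, against 65.5 times in the first group. The third group had 16 members on 9 chromosomes. The fourth had 10 members, all on chromosome 2 and upstream of the nearest TSS, and 8 of them held an NF-Y match. Its stretches also occurred in 37 gene-proximal peaks.

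Sequences of 2 such peaks, from the largest groups, are shown because repeated DNA set these peaks apart from promoter peaks. Capitals mark the stretch that most members of each group share, held by 55 and 27 members.
92-peak group, nearest to Gm16742, chr3:134323881-134324080: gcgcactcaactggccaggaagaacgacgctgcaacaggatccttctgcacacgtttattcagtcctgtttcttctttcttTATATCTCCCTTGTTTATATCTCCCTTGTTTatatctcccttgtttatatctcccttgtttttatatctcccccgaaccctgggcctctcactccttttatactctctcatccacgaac
35-peak group, nearest to U7, chr4:39903905-39904104: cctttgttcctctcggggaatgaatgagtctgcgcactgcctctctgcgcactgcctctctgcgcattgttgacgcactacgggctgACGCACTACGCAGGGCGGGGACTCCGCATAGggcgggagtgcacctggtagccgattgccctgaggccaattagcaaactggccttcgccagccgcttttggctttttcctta

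The middle 50 bases had more than 1 exact copy in the genome in 222 members (15.5%), against 1.82% of gene-proximal peaks (odds ratio 9.90, Fisher's exact test, adjusted p = 2.09e-96), 13.8% of gene-body peaks (odds ratio 1.15, 0.922 to 1.42, adjusted p = 0.277) and 39.0% of peaks beyond 50 kb (odds ratio 0.286, adjusted p = 3.59e-23). The median number of copies in the 222 was 14.5, and 68 members had more than 100. Neither kind of repeat was present in 1069 members.

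**Figure D3:**
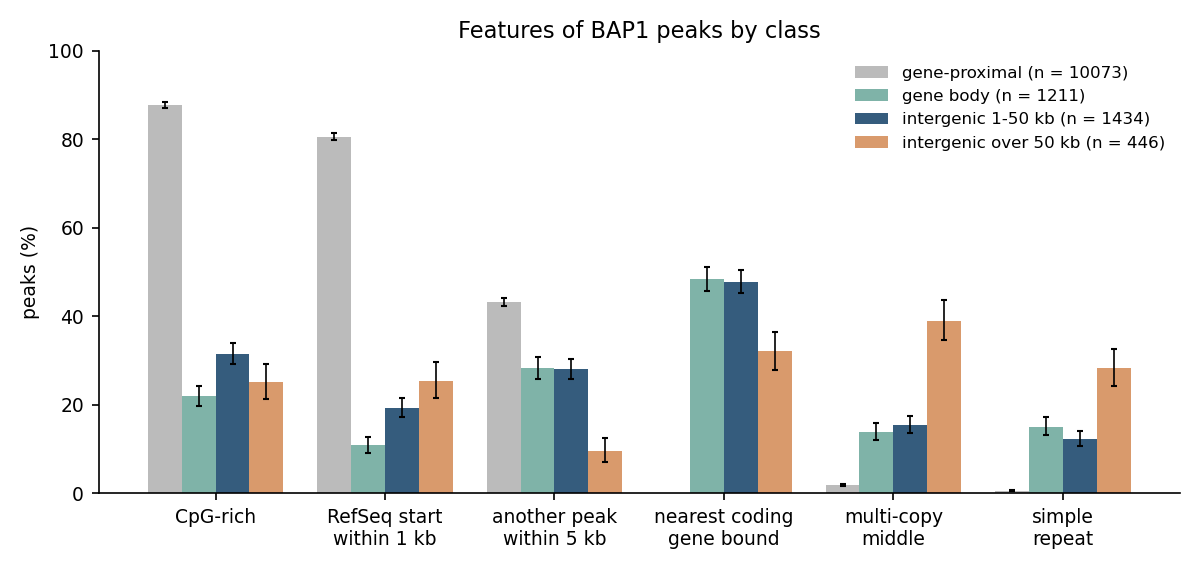
Percent of BAP1 peaks with 6 features in the 4 classes of peaks, with 95% Wilson intervals; the share with a bound nearest coding gene is not drawn for gene-proximal peaks, where the definition fixes it. Members lie below gene-proximal peaks in CpG (31.5% against 87.8%) and have simple repeats less often than peaks beyond 50 kb (12.3% against 28.3%).

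Another peak of any class lay within 5 kb of 401 members (28.0%, 25.7 to 30.3), a share of 28.2% in gene bodies (odds ratio 0.986, 0.832 to 1.17, Fisher's exact test, adjusted p = 0.922), 9.42% beyond 50 kb (odds ratio 3.73, adjusted p = 5.08e-17) and 43.2% of gene-proximal peaks (odds ratio 0.509, adjusted p = 4.36e-28). The last direction turned when peaks within 500 bp were merged (odds ratio 1.29, Fisher's exact test, adjusted p = 0.00165). A gene-proximal peak lay within 5 kb of 178 members and within 50 kb of 853.

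The nearest protein-coding gene had a gene-proximal BAP1 peak of its own for 686 members (47.8%, 45.3 to 50.4), and 39.6% of all 22367 protein-coding genes had one. The share was 48.4% for gene-body peaks (odds ratio 0.978, 0.839 to 1.14, Fisher's exact test, adjusted p = 0.831) and 32.1% beyond 50 kb (odds ratio 1.94, adjusted p = 1.51e-08). Without repeats, in 1069 members, the odds ratio against peaks beyond 50 kb was 1.45 (Fisher's exact test, adjusted p = 0.0838). It was 63.4% for members from 1 to 2 kb and 44.4% for those from 20 to 50 kb.

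Motifs were searched by exact letters on both strands of each 200 bp peak. A match describes the letters and does not show that the factor binds there. The GC box GGGGCGGG of SP and KLF factors was the most frequent, in 201 members (14%, 12.3 to 15.9) against 0.433% of the windows, a ratio of 32.4. NRF1, GCGCNTGCG, was found in 55 members (3.84%) against 0.0827%, and the ETS motif CCGGAAGT in 49 (3.42%) against 0.111%. ZNF143/THAP11 was found in 17 members (1.19%) against 0.0179%, with the highest ratio, 66.4. CTCF was found in 27 (1.88%) against 0.109%. These ratios were 46.4 for NRF1, 30.8 for ETS and 17.2 for CTCF.

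Smaller ratios were seen for CRE, TGACGTCA, the element of CREB and ATF factors (16 members, 1.12% against 0.105%), E2F, TTTCCCGC (11 members, 0.767% against 0.0912%), PU.1, GAGGAAGT (80 members, 5.58% against 1.25%), YY1, AANATGGCG (16 members, 1.12% against 0.343%), NF-Y, CCAATCA (111 members, 7.74% against 2.7%) and the E-box CACGTG (63 members, 4.39% against 1.92%). In all, 11 of 19 motifs were at least 2 times as frequent as in the windows.

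The other 8 were below that ratio. AP-1, TGANTCA, was found in 115 members (8.02%) against 5.91% and EBF, TCCCNNGGG, the motif of an early B cell factor, in 50 (3.49%) against 1.84%. STAT, TTCNNNGAA, the element of the IL-3 pathway, was found in 75 members (5.23%) against 7.53%, and RUNX, TGTGGTT, in 57 (3.97%) against 4.92%. The GATA factor motif AGATAAG was found in 36 (2.51%) against 2.94%, IRF, GAAANNGAA, in 85 (5.93%) against 7.99%, C/EBP, TTGCNNAA, in 71 (4.95%) against 9.3%, and the B box of RNA polymerase III promoters, GTTCGANNC, in 9 (0.628%) against 0.976%. Few matches of different motifs overlapped each other, at most 3 for a pair (IRF and STAT).

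**Figure D4:**
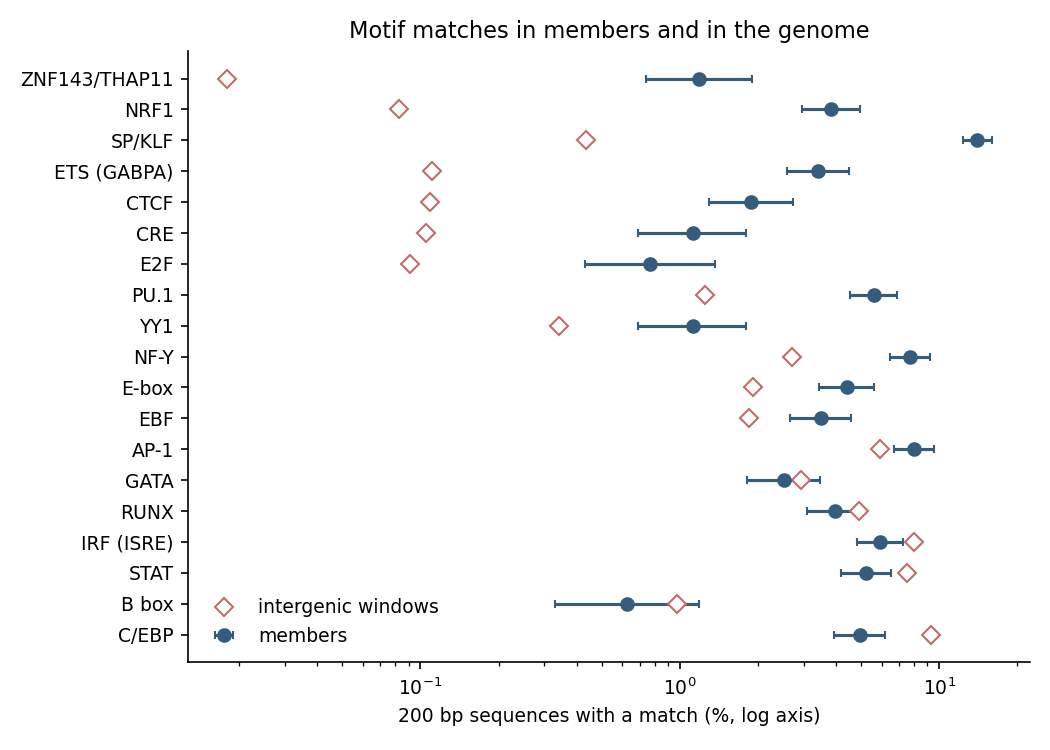
Percent of the 1434 members (filled circles with 95% Wilson intervals) and of 3780292 intergenic windows of 200 bp under the same distance rule (open diamonds) with a match to each of 19 motifs, on a log axis, ordered by their ratio. The ratio ran from 66.4 for ZNF143/THAP11 to 0.532 for C/EBP.

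CpG content moved with several of these motifs. Among the 982 CpG-poor members, SP/KLF was found in 83 (8.45%) against 0.41% of CpG-poor windows, ETS in 26 (2.65%) against 0.106%, PU.1 in 73 (7.43%) against 1.26% and AP-1 in 96 (9.78%) against 5.96%. NRF1 was found in 7 of them (0.713%), and in 48 of the 452 CpG-rich members (10.6%, 8.10 to 13.8) against 1.78% of CpG-rich windows. YY1 was found in 11 CpG-rich members (2.43%) against 4.08% of CpG-rich windows and in 5 CpG-poor members (0.509%) against 0.255% of CpG-poor windows.

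Matches were denser at the middle than in the flanks for the motifs at least 2 times as frequent as in windows, by differing amounts. SP/KLF had 231 matches within 50 bp of the middle, or 2310.0 per kb over all members, and 166.0 per kb beyond 500 bp, a ratio of 13.9. The ratio was 27.1 for NRF1, 24.4 for ETS, 15 for ZNF143/THAP11, 9.47 for CTCF, 5.73 for NF-Y and 5.00 for PU.1. It was 7.65 for CRE, 2.59 for YY1 (7 matches within 50 bp), 2.14 for E2F (3 matches within 50 bp) and 1.84 for the E-box. It was 1.80 for AP-1, 1.05 for RUNX and 0.681 for STAT.

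**Figure D5:**
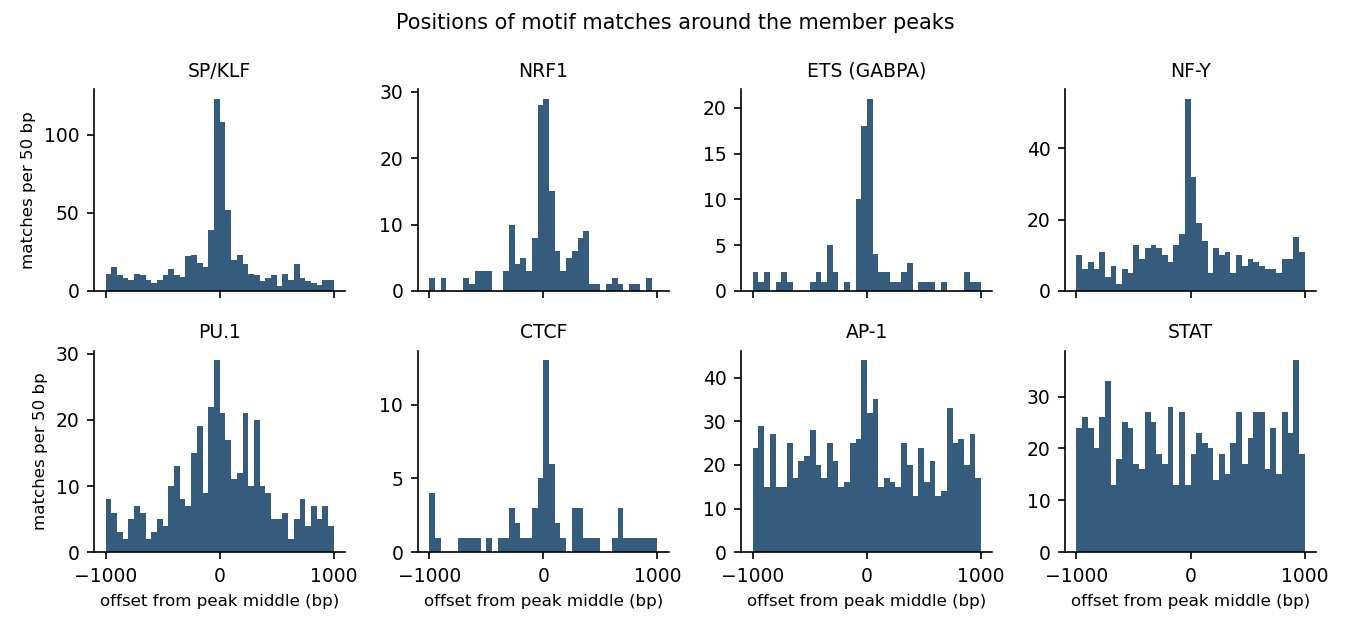
Number of motif matches in bins of 50 bp from 1 kb before to 1 kb after the middle of the 1434 members, for 8 motifs, each with its own count axis. SP/KLF, NRF1, ETS, NF-Y and CTCF peak at the middle, PU.1 has a broader peak and AP-1 a low one. STAT has none, with 32 matches within 50 bp of the middle and a density there 0.681 times that beyond 500 bp.

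Compared with gene-body peaks, SP/KLF (14% against 10.8%, odds ratio 1.34), ETS (3.42% against 1.90%, odds ratio 1.83), NRF1 (3.84% against 1.98%, odds ratio 1.97) and NF-Y (7.74% against 4.71%, odds ratio 1.70) were more frequent in the members, with adjusted p of 0.0272, 0.0329, 0.0126 and 0.00321 by Fisher's exact test. With CpG-rich, these were the 5 calls among 24 features, all higher in members. Without peaks beside a RefSeq start the odds ratios of these motifs were 1.30 for SP/KLF, 1.62 for ETS, 1.62 for NRF1 and 1.34 for NF-Y, with adjusted p from 0.0995 to 0.251 by Fisher's exact test. Without repeats they were 1.29, 1.82, 1.70 and 1.44, with adjusted p from 0.0739 to 0.105 by the same exact test. CpG-rich kept its call in both (odds ratios 1.66 and 1.74), and both lists are smaller, with 1158 and 1069 members.

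Against peaks beyond 50 kb, 12 of 24 features differed, among them SP/KLF (14% against 1.79%, odds ratio 8.93, Fisher's exact test, adjusted p = 1.38e-15) and NRF1 (3.84% against 0.224%, odds ratio 17.7, adjusted p = 2.38e-05). IRF was lower in members (5.93% against 12.6%, odds ratio 0.439, Fisher's exact test, adjusted p = 3.66e-05). Without repeats 5 features were called, and ETS, PU.1, E-box and NF-Y were no longer among them, with odds ratios of 1.5, 1.64, 1.90 and 1.18 in place of 3.12, 3.23, 4.05 and 2.59 (Fisher's exact test, adjusted p from 0.338 to 0.977). Both repeat features, called in the full list, could not be called after this removal. Against gene-proximal peaks 20 of 23 features differed. YY1 was rarer in members (1.12% against 6.14%, odds ratio 0.173, Fisher's exact test, adjusted p = 6.37e-19), as were NRF1, SP/KLF, ETS, CRE, ZNF143/THAP11, E2F, the E-box and EBF, with odds ratios from 0.213 to 0.55. NF-Y did not pass (7.74% against 9.21%, odds ratio 0.827, 0.673 to 1.02, adjusted p = 0.116 by Fisher's exact test). AP-1 (8.02% against 2.40%, odds ratio 3.54, adjusted p = 2.01e-22), PU.1 (5.58% against 2.07%, odds ratio 2.79, adjusted p = 8.47e-12), GATA (2.51% against 0.625%, odds ratio 4.09, adjusted p = 3.98e-09), CTCF (1.88% against 0.754%, odds ratio 2.52, adjusted p = 0.00036) and RUNX (3.97% against 1.77%, odds ratio 2.30, adjusted p = 2.09e-06) were more frequent, all by Fisher's exact test. So were IRF (5.93% against 2.98%, odds ratio 2.05, adjusted p = 3.94e-07) and STAT (5.23% against 3.6%, odds ratio 1.48, adjusted p = 0.00895), by the same exact test. None of these motifs was called against gene-body peaks (Fisher's exact test, adjusted p from 0.0654 to 0.9). Gene-body shares were 10.1% for AP-1, 7.6% for IRF, 5.45% for STAT, 4.29% for RUNX, 3.8% for PU.1, 1.65% for GATA and 1.07% for CTCF.

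The 1434 peaks lay in 1192 gaps between genes of any type, 999 of which held 1 peak. Gaps are named here by the nearest protein-coding genes, which need not form their borders. The gap with the most, between Nanos3, a germ cell gene, and Zswim4 on chromosome 8 (mm9, 86702868 to 86732416), held 8 within 11.5 kb. For 7 of them the nearest TSS was that of Mir23a, the first miRNA of the Mir23a, Mir27a and Mir24-2 cluster, at 4263 to 10939 bp upstream, and for the eighth it was Mir181c, at 13752 bp. Of the 8 peaks, 6 were CpG-rich, none held a repeat, and their median G + C content was 66.8%. Overlapping peaks were counted separately in all gaps, among them those 10786 and 10939 bp upstream of Mir23a.

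Gaps with 5 members lay beside Zfp36l2, which encodes a protein that binds AU-rich mRNA, and beside Chd2, a chromatin remodeler. The peaks nearest to Zfp36l2 lay 5200, 38063, 38186 and 45817 bp downstream of its TSS, in the gap on the side of Haao, where the last of the 5 was nearest to a 5S rRNA gene. The Chd2 peaks at 16751 and 16935 bp upstream lay at the RefSeq start of Chaserr, a long noncoding RNA gene, and the other 3 in that gap, between Chd2 and A830073O21Rik, were nearest to a U6 gene. The other 7 of the 10 fullest gaps held 4 members each. Kdm6b, an H3K27 demethylase, had peaks 1738, 2459, 5405 and 6692 bp upstream, in a gap of 7.13 kb on the side of Dnahc2, and no gene-proximal peak at its annotated starts. Chd4, the NuRD remodeler, had 4 between 6023 and 7101 bp upstream, on the side of the lysophosphatidic acid receptor gene Lpar5. The gap between Gltscr1, a BAF complex subunit gene, and Zfp541 held 4, at 18989 to 25746 bp upstream of Zfp541. The rest lay between Rpl30-ps6 and Ptma, Ppp1r13b and 2010107E04Rik, Rbm38 and Ctcfl, and E330021D16Rik and Gm6728.

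Peaks were linked to genes by distance alone, with the nearest protein-coding TSS within 50 kb. This gave 1050 genes (4.69% of 22367) for 1256 members. Of 223 annotated genes in 8 lists, 29 were linked to 37 members, between 1512 and 49815 bp from the TSS, 25 of them upstream, 19 CpG-rich, 10 with an SP/KLF match and 4 with the AAAGG repeat. A gene-proximal peak was present at 24 of the 29 genes, at 151 of the 223 listed genes (67.7%) and at 511 of the 1050 linked genes (48.7%). Bap1 itself had a gene-proximal peak and no member.

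In the BAP1 complex list 3 of 14 genes were linked (21.4%, 7.57 to 47.6), against 4.69% of all protein-coding genes. Hcfc1, which encodes the scaffold HCF1, had a peak 1519 bp upstream. Yy1, a zinc finger factor, had a pair 26553 and 27058 bp upstream, and Foxk1, a forkhead factor, 1 at 34057 bp upstream. In the Polycomb list 3 of 29 were linked (10.3%, 3.58 to 26.4). Cbx8, a chromodomain subunit of PRC1, had a peak 12517 bp upstream, Pcgf5 1 at 30779 bp that lay at a RefSeq start of Pcgf5, and Rnf2, the H2A ubiquitin ligase, 1 at 31239 bp with the AAAGG repeat.

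Among B lineage transcription factors 8 of 35 were linked (22.9%, 12.1 to 39.0), to 13 members. Myc had a peak 1840 bp upstream. Ikzf2, an Ikaros family factor, had 2 overlapping peaks at 1512 and 1635 bp upstream, with CpG ratios of 1.36 and 1.29. Id2 and Id3 encode inhibitors of E proteins, which drive B cell commitment. Id2 had a peak 2855 bp upstream, and Id3 had 1 at 2993 bp upstream and 1 at 2932 bp downstream, with no gene-proximal peak. Mef2d had 3 members at 3633, 3940 and 26653 bp, the last with the AAAGG repeat. Pou2f2, which encodes OCT2, had 2 at 8573 and 9504 bp on either side. Tcf12, an E protein gene, had 1 at 21478 bp upstream and Fli1, an ETS factor gene, 1 at 29372 bp upstream with a PU.1 match. Among pre-B receptor signaling and recombination genes 2 of 24 were linked (8.33%), Vav1, a guanine exchange factor (3525 bp upstream), and Pik3ap1, a PI3K adaptor (18075 bp upstream, with the AAAGG repeat). Neither had a gene-proximal peak. Among progenitor transcription factors 2 of 29 were linked (6.90%), Tal1 (3522 bp upstream) and Klf6 (15822 bp upstream).

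In the IL-3 receptor and STAT5 pathway 5 of 29 genes were linked (17.2%, 7.60 to 34.5), and all 5 had a gene-proximal peak, as did 24 of the 29. Socs1 and Socs3 encode inhibitors of cytokine signaling. Socs3 had a peak 5614 bp downstream, Socs1 1 at 16527 bp downstream with a STAT match, and Spred2, an inhibitor of RAS signaling, 2 at 4111 and 4770 bp upstream. Id1 had 1 at 3287 bp downstream and Ptpn11, which encodes the phosphatase SHP2, 1 at 19000 bp downstream. Among cell cycle and DNA replication genes 5 of 50 were linked (10.0%, 4.35 to 21.4). Ccne1, encoding cyclin E1, had a peak 14377 bp downstream with NRF1 and SP/KLF matches, Cdk6 1 at 1695 bp upstream beside a RefSeq start of Gm36470, Cdkn1a, encoding p21, 1 at 10081 bp upstream, and Rrm2, a ribonucleotide reductase subunit gene, 1 at 15083 bp downstream. Cdkn1b, encoding p27, had 2 at 8052 and 8438 bp downstream, both at the RefSeq start of Lockd, a noncoding RNA gene. In the apoptosis and p53 list 1 of 16 was linked (6.25%), Mdm4, an inhibitor of p53, at 49815 bp downstream with the AAAGG repeat and a RefSeq start of Gm46264 within 1 kb.

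The peaks at 5 of these genes are shown as examples from 4 of the lists that hold named motifs, which are in capitals (SP/KLF in all 5, C/EBP in Myc and NRF1 in Ccne1).
Hcfc1, upstream, chrX:71213116-71213315: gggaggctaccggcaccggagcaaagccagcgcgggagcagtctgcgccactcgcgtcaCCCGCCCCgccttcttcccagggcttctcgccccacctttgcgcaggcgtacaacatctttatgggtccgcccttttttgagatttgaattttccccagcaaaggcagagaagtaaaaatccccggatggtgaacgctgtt
Cbx8, upstream, chr11:118914701-118914900: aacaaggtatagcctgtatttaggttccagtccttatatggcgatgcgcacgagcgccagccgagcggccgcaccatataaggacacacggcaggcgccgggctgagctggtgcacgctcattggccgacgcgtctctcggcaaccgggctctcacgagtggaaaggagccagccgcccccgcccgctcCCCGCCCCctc
Myc, upstream, chr15:61815007-61815206: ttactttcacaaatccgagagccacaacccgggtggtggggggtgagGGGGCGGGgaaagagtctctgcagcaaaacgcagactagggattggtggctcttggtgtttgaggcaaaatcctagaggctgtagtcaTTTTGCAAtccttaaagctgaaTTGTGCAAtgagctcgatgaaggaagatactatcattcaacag
Id3, upstream, chr4:135696320-135696519: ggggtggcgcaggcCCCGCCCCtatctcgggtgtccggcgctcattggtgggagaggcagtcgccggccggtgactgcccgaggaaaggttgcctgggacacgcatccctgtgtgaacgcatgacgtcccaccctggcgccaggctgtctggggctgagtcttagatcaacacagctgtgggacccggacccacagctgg
Ccne1, downstream, chr7:38869912-38870111: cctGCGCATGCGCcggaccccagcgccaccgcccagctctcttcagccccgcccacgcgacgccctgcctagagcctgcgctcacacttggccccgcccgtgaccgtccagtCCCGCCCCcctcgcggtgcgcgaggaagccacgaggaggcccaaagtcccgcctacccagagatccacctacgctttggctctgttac

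The Hcfc1, Cbx8, Myc and Id3 peaks each held the GC box of SP/KLF, and the Ccne1 peak held it with an NRF1 match. Their CpG ratios were 0.871, 0.989, 0.443, 0.617 and 0.913.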

How the data were processed

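Chromatin from Ba/F3 cells was immunoprecipitated for BAP1 or FLAG-tagged BAP1 and sequenced. The authors mapped the reads to mm9 with Bowtie and used MACS, with input DNA as control, to find peaks (Bowtie 1.0.0 and MACS 1.4.2 per the submitters' processing notes) and deposited 1 joint list of peak positions in bp for both antibodies. How the samples were combined and the threshold are not given in the sources used here. The list follows the distance to a TSS and carries no score, so no depth or precision per peak can be given.

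Peak middles were placed against GENCODE M1 (37273 genes, 95458 transcripts). CpG content, simple repeats, copies of the middle 50 bases and 19 motifs were computed from the mm9 sequence. All 200 bp genome windows under the same rule gave the background. RefSeq promoters of GRCm38.p6 (32851 sequences) were matched by sequence only, and no coordinates of that build were used. The genome file carried no repeat masking, so a planned repeat-masked share was replaced by simple repeats and copies.

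Intervals are 95% Wilson intervals. Classes were compared with two-sided Fisher's exact tests, adjusted by the Benjamini-Hochberg method over 71 comparisons with a threshold of 0.05. Odds ratios with an empty cell had 0.5 added. Alternatives were other distance limits, transcripts and windows, merged peaks, and lists without repeats or RefSeq starts.

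Genes were named by rules: listed genes nearest to a member (at most 8 a list), genes flanking the 10 fullest gaps, Bap1, and the member with the match nearest its middle for each motif at least 2 times as frequent as in the windows, of which that for SP/KLF is not reported here. Other genes, among them those at RefSeq starts and in repeat groups, were chosen after their values were seen. The members and lists were chosen with earlier results of these data known. The scripts were tested on simulated data. Python 3.11.15, numpy 2.4.6, pandas 2.3.3, scipy 1.17.1 and numba 0.67.0 were used.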

Additional observations from a re-analysis of the deposited data

How the results depend on the processing

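The number of intergenic peaks went from 1044 (upper limit 20 kb) to 1626 (100 kb) around 1434, and the share upstream from 66.3% to 72.1%. With TSSs of protein-coding genes only, 31.2% had a neighbor within 5 kb, 36.2% were CpG-rich, 50.6% had a bound nearest coding gene and 10.6% a simple repeat. With a lower limit of 2 kb, 25% had a neighbor and 8 features were called against gene bodies. Merging peaks within 500 bp left a neighbor for 19.9% and turned the odds ratio for a neighbor against gene-proximal peaks to 1.29. The neighbor share was 12.4% within 1 kb and 52.3% within 20 kb, and 18.9% were CpG-rich at a ratio of 0.75. Without peaks beside a RefSeq start, an alternative chosen after seeing the data, 25.6% were CpG-rich, 50.6% had a bound gene, 15.1% a simple repeat, and 1 feature was called against gene bodies. Without repeats, also chosen after seeing the data, 32.7% had a neighbor, 52.0% a bound gene, and 1 and 5 features were called against gene bodies and peaks beyond 50 kb. Simple repeats and multi-copy middles, both called against peaks beyond 50 kb in the full list, could not be called after their removal. The cause of these shifts was not tested.

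No paired analysis was possible because each immunoprecipitation was sequenced once and both share 1 list. A stricter threshold was not run because the list holds no score. Depth limits what was called and is unknown, so a gene without a peak is not shown to be unbound.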
